A study of Mus musculus with 6 samples.

Results

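The genes of the 5 NF-kB subunits (Rel, Rela, Relb, Nfkb1 and Nfkb2) and of 4 of their regulators (Nfkbia, Nfkbie, Tnfaip3 and Traf3) were followed through enhanced reduced representation bisulfite sequencing (ERRBS) of splenic naive B cells. The 9 were chosen by name out of 21883 protein-coding genes with a position on GRCm38, and each was read from 2 kb below its lower end to 2 kb above its upper end. In these regions 1224 of the 1457048 CpG cytosines covered at least 10 times in every library were found. They lay in 59 of the 108802 tested tiles of 1 kb, which hold 3 or more such cytosines and have reads of both states, and in 10 tiles with fewer cytosines that were not tested. Libraries of 3 Tet2 knockout (KO) samples were set against those of 3 Tet2 wild-type (WT) samples. All came from the strain C57BL/6. The labels name no Cre driver, age or kind of Tet2 allele. They do not say whether the libraries of a genotype came from separate mice, so the p-values given here measure the spread between libraries, which may be technical. The series' design text speaks of germinal centre cells, whereas naive cells are named in the title and on each of the 6 samples.

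NF-kB proteins are dimeric transcription factors that B cells need for survival, activation and antibody responses. In resting cells they are held in the cytoplasm by IkB proteins, or as the unprocessed precursors of the Nfkb1 and Nfkb2 genes, and signals from the antigen receptor, Toll-like receptors, CD40 and the BAFF receptor release them through a canonical and a non-canonical route. TET2 oxidises 5-methylcytosine, a step towards its removal, and the comparison asked how methylation at a locus differs without it. Bisulfite sequencing reads 5-methylcytosine and 5-hydroxymethylcytosine alike as methylated, and the values below are the sum of both.

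Each library listed 1551481 to 1626375 cytosines at a median coverage of 92 to 110 reads, and 1264 to 1317 of the listed cytosines of a library lay in the 9 regions. Inside Tet2, 6 cytosines were listed in all 3 WT libraries at 28 to 71 reads and in no KO library. All 6 lay in 1 short stretch, from 133486189 to 133486297 on chromosome 3. No Tet2 cytosine was listed in all KO libraries and in no WT library, and 111 were listed in all 6 libraries. Such counts were not made for the rest of the genome, so no background share is given. Of 8 B cell marker genes, 2 had 3 or more measured cytosines at the gene start. Pax5 stood at 0.523% in KO and 0.201% in WT, and Cd22 at 39.0% in KO and 30.5% in WT. Of 8 T cell genes, 2 had such a start, with 3 cytosines each. Zap70 (93.4% in KO, 82.3% in WT) and Cd5 (91.7% in KO, 92.7% in WT) were methylated there. Of 4 erythroid genes 1 had such a start, Klf1, and it was not methylated (0.497% in KO, 0.558% in WT). No gene of the myeloid and NK lists had 3 or more measured cytosines at a known start. The purity of the cells cannot be judged from so few starts.

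The measured cytosines just before the start of 7 members were unmethylated in both genotypes, and Nfkb1 and Relb had no promoter window. RefSeq promoter windows of GRCm38.p6 were matched for 7 members by gene symbol, 10 windows in all because Nfkb2 and Tnfaip3 have more than 1 start. Below, the 250 bases before the start are printed 5′ to 3′ on the gene's own strand, for an activating subunit, a precursor subunit and 2 feedback inhibitors whose transcription NF-kB itself induces. Capitals mark matches to the kappaB consensus motif, the sequence class bound by NF-kB dimers. The windows lie at chr11:23770970-23771219 (minus strand) for Rel, chr19:46304487-46304736 (plus strand) for Nfkb2, chr12:55492648-55492897 (minus strand) for Nfkbia and chr10:19015411-19015660 (minus strand) for Tnfaip3.

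Rel: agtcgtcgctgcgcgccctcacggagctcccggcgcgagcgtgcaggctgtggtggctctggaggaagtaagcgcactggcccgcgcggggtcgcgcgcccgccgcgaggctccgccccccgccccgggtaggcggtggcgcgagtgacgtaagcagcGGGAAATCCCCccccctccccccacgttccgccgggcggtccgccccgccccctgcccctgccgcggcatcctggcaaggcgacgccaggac

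Nfkb2: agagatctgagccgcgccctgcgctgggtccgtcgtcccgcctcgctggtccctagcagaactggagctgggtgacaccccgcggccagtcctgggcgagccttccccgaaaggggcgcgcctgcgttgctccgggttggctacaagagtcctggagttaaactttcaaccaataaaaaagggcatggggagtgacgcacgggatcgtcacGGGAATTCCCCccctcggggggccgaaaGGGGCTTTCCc

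Nfkbia: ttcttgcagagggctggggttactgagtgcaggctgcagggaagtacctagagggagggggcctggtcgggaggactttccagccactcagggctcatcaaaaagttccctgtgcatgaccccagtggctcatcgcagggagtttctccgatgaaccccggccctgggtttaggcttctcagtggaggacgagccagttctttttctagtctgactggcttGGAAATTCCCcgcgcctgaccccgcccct

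Tnfaip3: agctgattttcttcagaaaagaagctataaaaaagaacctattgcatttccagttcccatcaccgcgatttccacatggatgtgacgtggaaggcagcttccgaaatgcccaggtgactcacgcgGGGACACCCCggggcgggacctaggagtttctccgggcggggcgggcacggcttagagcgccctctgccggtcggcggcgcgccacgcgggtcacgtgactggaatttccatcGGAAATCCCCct

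The motif was searched on both strands, and overlapping matches were kept, which makes 1 longer run of capitals in Rel and in Nfkb2. The last base of the nearest match lay 82 bases before the start in Rel, 2 in Nfkb2, 20 in Nfkbia and 3 in Tnfaip3. A match was present in 8 of the 10 windows, from 6 of the 7 genes, and absent from the Rela window. Among 32851 promoter windows of the same length, 7.25% held a match. A match describes the letters and does not show binding.

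In 9 of these windows 167 cytosines were measured, at 11 to 358 reads each. Library means of a window lay between 0% and 0.493% in KO and between 0% and 0.332% in WT, and the highest mean of a single cytosine over the 6 libraries was 1.03%. In the Nfkbia window 3 of 16 CpG cytosines were measured. Summed over these, 0 of 983 KO reads were methylated, against 1 of 1064 WT reads. Taken as separate reads, the 983 allow a level of up to 0.305%. A read over more than 1 of the cytosines was counted at each, so the true limit may be higher. Reads come from PCR without molecular identifiers, and such limits cover counting error alone. At the edges of the capitals, 3 CpG cytosines were measured. Those at chr19 positions 46304698 in the Nfkb2 window above and 46305705 in the window of another Nfkb2 start were at 0% in all 6 libraries, and the one at chr11 position 23771061 in Rel was at 0% in 5 of them and at 0.794% in WT 2. Of the 10048 windows of the genome with 3 or more measured cytosines, 92.6% were below 10% on average, so a low level at the start was the common state.

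Along the 9 genes, methylation was close to 0% in CpG-dense tiles, most of them around a start, and close to complete in the interior, with a small number of tiles between. Tiles were described by the mean of the 6 libraries as low (under 10%), intermediate (10 to 70%) or high (70% and above), limits that were chosen after the levels had been seen. Of the 59 member tiles, 21 were low, 10 intermediate and 28 high. The low share of 35.6% compares with 24.0% of all tiles, the intermediate share of 16.9% with 12.4%, and the high share of 47.5% with 63.6%. Low member tiles held a median of 45 measured cytosines, against 5.5 in intermediate and 6 in high ones.

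**Figure D1:**
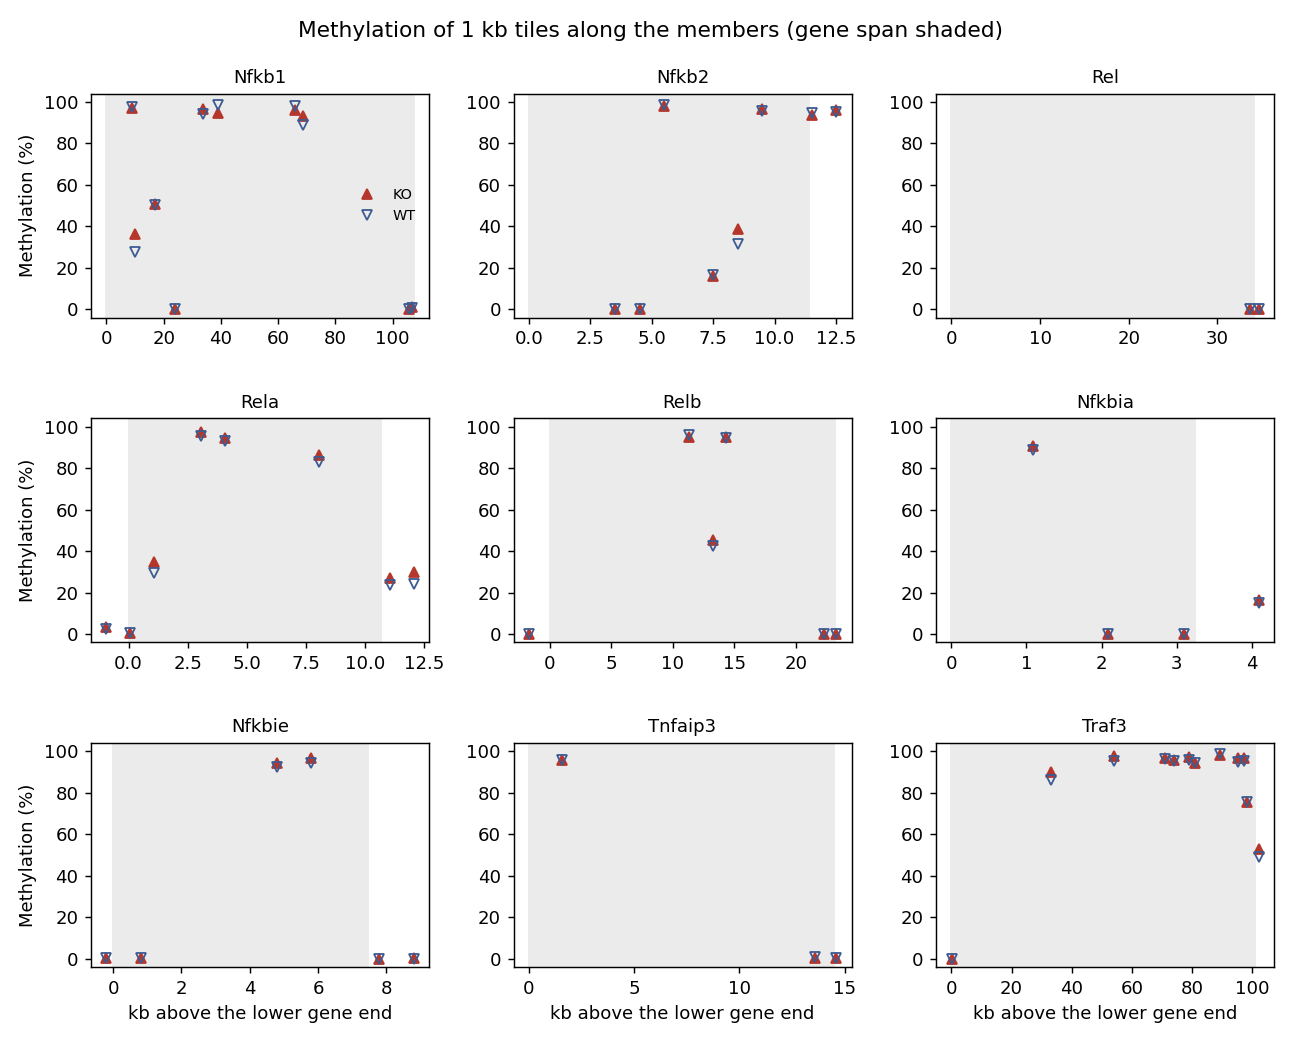
Mean methylation of the 3 KO libraries (filled triangles) and the 3 WT libraries (open triangles) in each member tile of 1 kb, in percent, against the distance of the tile's centre from the lower gene end in kb; the gene span is shaded. Each gene has tiles near 0%, and each gene apart from Rel has tiles above 70%. The KO and WT symbols lie close together, with the widest gap in the Nfkb1 tile of intermediate level.

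None of the 59 member tiles was called, where a call required both an adjusted p below 0.05 and at least 10 percentage points between the genotypes. Over all tiles, 0.112% were called as higher in KO and 0% as lower, so 0 of 59 lies near the background. By the level classes introduced above, 0.00766% of low, 0.667% of intermediate and 0.0434% of high tiles were called as higher. The test was a quasi-binomial model on the methylated and unmethylated read counts with overdispersion moderated by limma, and the smallest Benjamini-Hochberg adjusted p of a member tile was 0.652. All 59 differences stayed within the 10 points, from -3.68 in Nfkb1 to 8.55 in Nfkb1. At an unadjusted p under 0.05 there were 3 member tiles higher in KO and 0 lower, with a background of 5.74% and 1.46% of all tiles. The libraries of the 2 genotypes did not overlap in 6 tiles higher in KO and in 1 tile lower in KO, 10.2% and 1.69% of the 59, with a background of 8.35% and 3.36%. Of the 6 higher ones, 4 were high tiles (background 7.82%), 2 intermediate (12.7%) and 0 low (7.51%). The 1 lower tile was high (background 3.63%), and the backgrounds of the other classes were 2.94% for intermediate and 2.89% for low tiles. The difference was above 0 in 38 of the 59 member tiles and in 59.8% of all tiles.

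**Figure D2:**
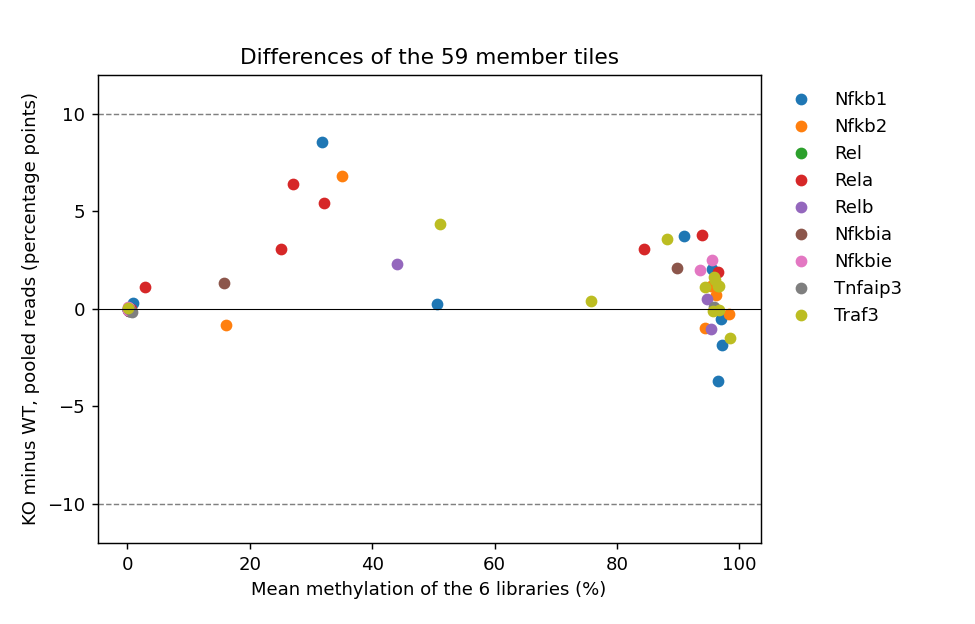
Difference of pooled methylation, KO minus WT in percentage points, of the 59 member tiles against the mean methylation of the 6 libraries in percent; 1 point is a tile, coloured by gene, and the dashed lines mark the 10 points that a call required. Low tiles lie between -0.153 and 1.11 points, the highest in Rela, intermediate tiles reach 8.55, and no point crosses a dashed line.

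Differences are given by level class, and the classes were not tested against each other. The 10 intermediate member tiles had a median difference of 3.71 points, 9 of them above 0, where all intermediate tiles of the genome had a median of 1.30 points with 64.6% above 0. The 28 high ones had a median of 1.16 points (all high tiles 0.406) and the 21 low ones -0.00393 points (all low tiles 0.0499). These are differences of pooled reads. With each cytosine weighted equally, the 10 intermediate tiles ranged from -0.739 (Rela, from 5638001) to 9.76 points (Nfkb1, from 135594001). The Nfkb2 tile from 46308001 was then also below 0, at -0.391 points. Class medians were not computed with this weighting. The 47 intermediate member cytosines averaged 37.7%, 35.1% and 31.9% in the KO libraries, against 32.4%, 29.4% and 32.2% in the WT libraries, a difference of 3.58 points. KO 3 lay below WT 1 and WT 3, and the genotypes overlapped. The 246 high cytosines averaged 95.1% ± 0.199 in KO and 94.3% ± 0.532 in WT, and the 931 low ones 0.308% ± 0.0656 in KO and 0.245% ± 0.00526 in WT (SD, n = 3 each). Over the genome the matching differences were 2.14 points at intermediate, 0.495 at high and 0.0653 at low cytosines. These are descriptions of the members, and none was tested against the other genes.

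**Figure D3:**
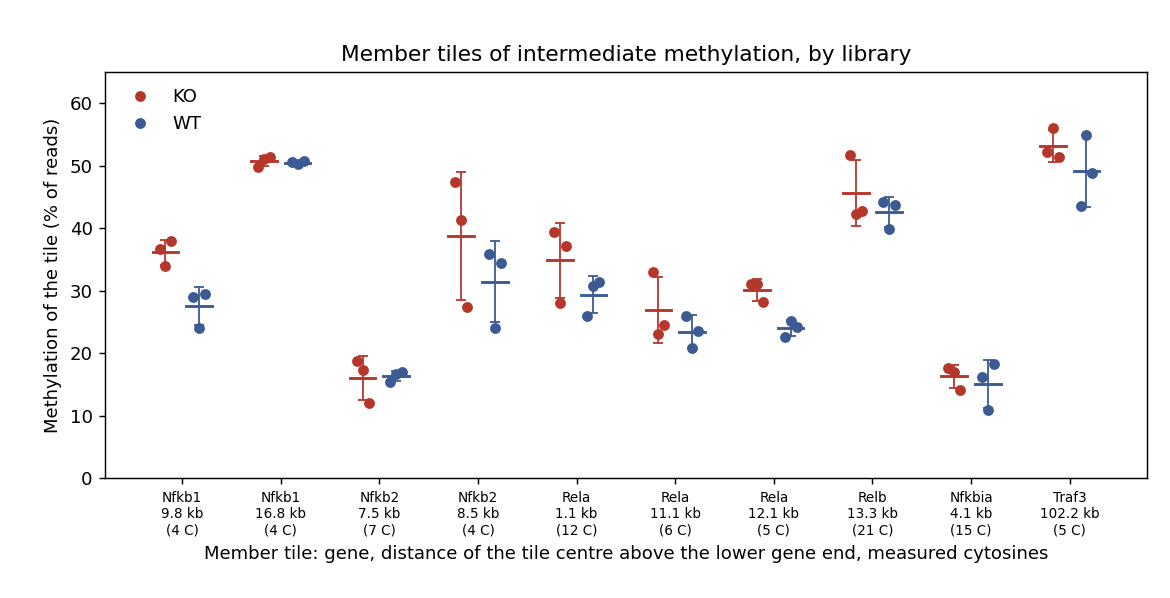
Methylation of the 10 intermediate member tiles in percent of reads, by library: KO (red, left) and WT (blue, right), with the mean and SD of 3 libraries; the labels give the gene, the distance of the tile centre above the lower gene end and the number of measured cytosines (C). All KO points lie above all WT points in the Nfkb1 tile at 9.8 kb and in the Rela tile at 12.1 kb, and overlap WT in the others.

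Rel encodes c-Rel, the subunit most restricted to lymphoid cells. Its 119 measured cytosines (gene 19696, chromosome 11, 23736847 to 23770969, minus strand) all belonged to the low class and lay in 2 tiles around the start, whose 250 upstream bases are printed above. The tile from 23770001 stood at 0.108%, 0.127% and 0.232% in the KO libraries, against 0.228%, 0.130% and 0.214% in the WT libraries. The tile from 23771001, upstream of the start, stood at 0.114%, 0.107% and 0.0263% in KO, against 0.115%, 0.130% and 0.0431% in WT. These tiles were unmethylated in all 6 libraries, at 7441 to 11386 reads per tile and library summed over their cytosines. No cytosine of the gene's interior beyond these tiles was measured in all 6.

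Rela encodes p65, the main activating subunit of the canonical route. Its region (gene 19697, chromosome 19, 5637442 to 5648134, plus strand, 163 cytosines) held 3 intermediate tiles: 1 just inside the start, 1 across the gene's end and 1 beyond it. The tile beyond the end, from 5649001 with 5 cytosines, stood at 31.1%, 31.1% and 28.2% in KO, against 22.7%, 25.1% and 24.3% in WT. Every KO library lay above every WT library. The difference was 6.39 points, with p = 0.0321 and an adjusted p of 0.652 in the quasi-binomial model with limma moderation. Of its cytosines, the reverse-strand one at 5649877 had 11.3%, 7.32% and 18.3% in KO, against 0%, 5.06% and 0% in WT, at 53 to 91 reads (difference 10.6 points, adjusted p = 0.554). The tile across the gene's end, from 5648001, overlapped between genotypes, at 32.9%, 23.1% and 24.6% in KO and 26.0%, 20.8% and 23.5% in WT.

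The Rela tile from 5638001 stood at 39.4%, 28.1% and 37.2% in KO, against 26.0%, 30.8% and 31.4% in WT. KO 2 lay below WT 2 and WT 3, so the groups overlapped. Its pooled difference of 5.43 points was the sum of unlike cytosines. Of its 12, 8 between 5638073 and 5638146 were below 6% in every library, 3 between 5638954 and 5638990 were above 87%, and 1 lay between. With each cytosine weighted equally the difference was -0.739 points.

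Relb encodes the partner of p52 in the non-canonical route. Its region (gene 19698, chromosome 7, 19606217 to 19629438, 149 cytosines) held low tiles at its upper end, a further low tile in the lower flank that overlaps Clasrp, and inside the gene 1 intermediate tile between 2 high ones. The intermediate tile, from 19619001 with 21 cytosines, stood at 51.7%, 42.2% and 42.8% in KO, against 44.2%, 39.9% and 43.7% in WT. KO 1 was the highest and WT 2 the lowest, while KO 2 and KO 3 both lay below WT 1 and WT 3. The difference was 2.30 points with an adjusted p of 0.879.

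Within that tile the level changed from cytosine to cytosine. From 19619574 to 19619602, 6 forward-strand cytosines averaged 72.5 to 89.1% in KO and 62.3 to 83.3% in WT, while the forward-strand cytosines on either side, at 19619570 and 19619611, averaged 44.4% and 36.8% in KO and 34.8% and 37.9% in WT. All 6 had a higher mean in KO. They lie close together on 1 strand at similar coverage, may lie on the same reads and need not be separate observations. The one at 19619574 stood at 82.3%, 81.1% and 84.7% in KO, against 72.4%, 72.3% and 70.2% in WT, at 141 to 192 reads, with no overlap (difference 11 points, p = 0.00707, adjusted p = 0.551 in the quasi-binomial model with limma moderation). In the opposite direction, the reverse-strand cytosine at 19619656 stood at 26.0%, 22.9% and 15.3% in KO, against 32.8%, 26.1% and 35.9% in WT, also without overlap (-10.04 points, adjusted p = 0.583). This cytosine and the run of 6 were singled out after their values were seen.

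**Figure D4:**
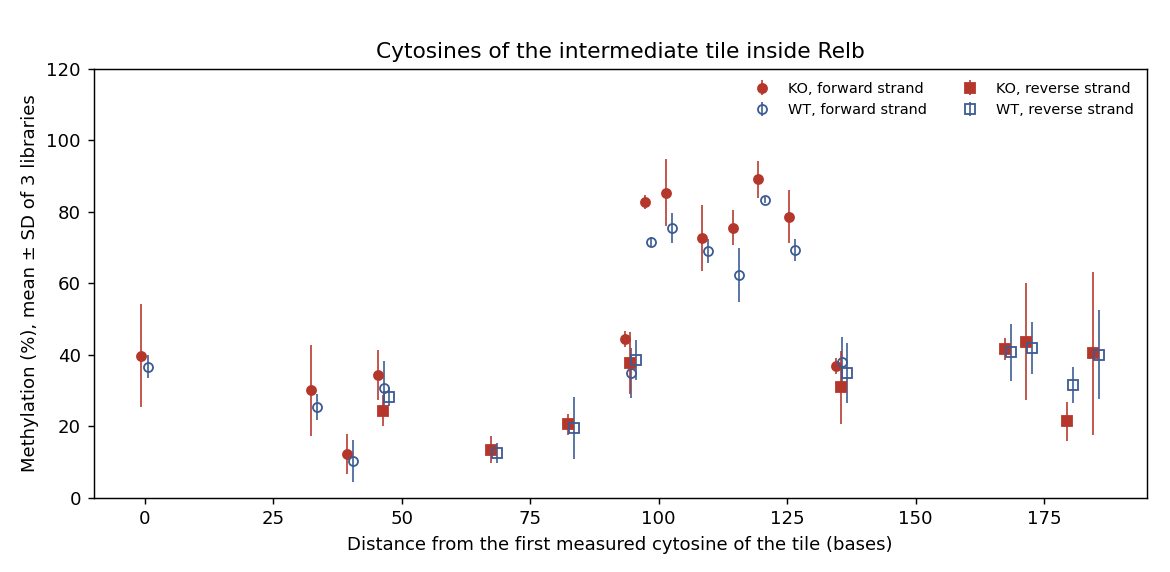
Methylation of the 21 cytosines of the intermediate tile inside Relb, as mean ± SD of 3 libraries in percent, against the distance in bases from the lowest measured cytosine; KO is filled and WT open, with circles for the forward and squares for the reverse strand. The run of forward-strand cytosines near 100 bases stands above 60% in both genotypes and higher in KO, while most other cytosines lie between 10% and 45% with overlapping error bars.

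Nfkb1 encodes p105, the precursor of p50. Its region (gene 18033, chromosome 3, 135584655 to 135691969, 202 cytosines) had its densest measured tile, with 118 cytosines, across the upper gene end, at 0.979%, 1.47% and 0.799% in KO and 0.859%, 0.653% and 0.946% in WT. The largest difference of any member tile lay inside the gene, from 135594001 with 4 cytosines. It stood at 36.6%, 33.9% and 37.9% in KO, against 29.0%, 24.1% and 29.5% in WT. Summed over its cytosines there were 245 to 470 reads per library. All KO libraries were above all WT libraries. The difference of 8.55 points had p = 0.0418 and an adjusted p of 0.675 in the quasi-binomial model with limma moderation. All 4 cytosines had a higher KO mean, by 6.91 to 11.7 points of pooled reads, yet at each of them the libraries of the 2 genotypes overlapped. Those at 135594431, 135594455 and 135594466 lie close together on the reverse strand. They had 77, 80 and 81 reads in KO 1 and 43 each in WT 2. They may lie on the same reads and need not be separate observations. The lowest difference of any member tile, -3.68 points (adjusted p = 0.808), was in the high Nfkb1 tile from 135623001, with 94.4%, 97.1% and 92.2% in KO and 100%, 98.6% and 97.0% in WT on 75 to 193 reads.

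The other intermediate Nfkb1 tile, from 135601001, stood near 50% in all 6 libraries without holding a cytosine of that level. Its 4 cytosines were 2 CpG pairs whose strands differed. At 135601765 the forward strand had 96.6 to 100% and the reverse strand 0 to 7.58%, and at 135601812 the forward strand had 0 to 14.0% and the reverse strand 100% in every library. Across the members, 263 CpGs were measured on both strands, with a median absolute difference of 0.130 points between strands, and 6 differed by more than 20 points. Besides these 2 they were 2 in Rela, at 5645477 and 5645527, and 2 in Traf3, at 111264901 and 111264950, with the same arrangement: the forward strand high and the reverse lower at the first CpG, and the reverse high and the forward low at the second. At the first CpG the forward strand had 85.1 to 97.6% in Rela and 93.5 to 100% in Traf3, and the reverse strand 48.0 to 64.9% in Rela and 41.9 to 72.4% in Traf3. At the second the forward strand had 0 to 25% in Rela and 0 to 9.52% in Traf3, and the reverse strand 98.9 to 100% in Rela and 90.4 to 100% in Traf3. The levels of the Nfkb1 tile from 135601001, the Rela tile from 5645001 and the Traf3 tile from 111264001 include these pairs, in KO and WT alike. The origin of the strand differences was not tested, and they need not reflect methylation of the cells' DNA.

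Nfkb2 encodes p100, which serves both as an inhibitor and as the precursor of p52. In its region (gene 18034, chromosome 19, 46300994 to 46312400, plus strand, 151 cytosines), the low tile from 46304001 with 45 cytosines covered the start whose window is printed above. The low tile from 46305001 with 66 cytosines covered the other starts with a window. Both tiles stood at 0 to 0.282% in KO and 0.0493 to 0.532% in WT. Further inside, the tile from 46309001 with 4 cytosines stood at 47.4%, 41.4% and 27.4% in KO, against 35.9%, 24.1% and 34.5% in WT. KO 3 lay below WT 1 and WT 3, and KO 1 and KO 2 above all WT libraries. The difference was 6.79 points with an adjusted p of 0.837. This pooled level was the sum of unlike cytosines. Those from 46309021 to 46309028 averaged 16.4 to 31.2% in KO and 11.2 to 23.3% in WT. The one at 46309963 stood at 94.0 to 100% in every library. It had 94, 75 and 47 reads in the KO libraries and 105, 67 and 91 in the WT libraries. With each cytosine weighted equally the difference was 5.42 points.

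At the reverse-strand cytosine 46309022 of that Nfkb2 tile, KO had 39.3%, 23.3% and 30.9% and WT had 14.2%, 16.6% and 13.1%, at 86 to 145 reads. The genotypes did not overlap, and the difference of 16.5 points had p = 0.00365 and an adjusted p of 0.551 in the quasi-binomial model with limma moderation. Its forward-strand partner at 46309021 stood at 16.9%, 34.7% and 12% in KO and 22.4%, 14.8% and 32.8% in WT, with overlap and a difference of -2.46 points.

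The tile below it, from 46308001 with 7 cytosines, stood at 18.8%, 17.3% and 12% in KO, against 15.4%, 16.6% and 16.9% in WT, with overlap and a difference of -0.820 points (adjusted p = 0.973). It was the 1 intermediate member tile whose pooled difference was not above 0. Its forward-strand cytosine at 46308971 had no methylated read in the 3 KO libraries, at 65 to 129 reads each, against 10.3%, 6.03% and 5.56% in WT, at 116 to 126 reads. The difference of -7.26 points had an adjusted p of 0.547, the smallest of any member cytosine, and the cytosine was singled out for it. The high tile from 46312001 at the gene's end, which overlaps the neighbour Psd, was the 1 member tile in which all KO libraries lay below all WT libraries, with 94.4%, 93.5% and 93.8% in KO and 94.8%, 94.4% and 95.4% in WT (adjusted p = 0.885).

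Nfkbia encodes IkB alpha, the inhibitor that NF-kB resynthesises to end its own response. Its region (gene 18035, chromosome 12, 55489409 to 55492647, minus strand, 96 cytosines) was low across the start and rose sharply upstream of it. In the flanking tile from 55493001, 10 cytosines up to 55493318 averaged 0 to 10.1% in KO and 0.244 to 9.15% in WT. The next one, at 55493341, stood at 49.0%, 59.9% and 34.0% in KO, against 22.3%, 37.1% and 34.9% in WT, with KO 3 below WT 2 and WT 3 (18.5 points, adjusted p = 0.561). The remaining 4, from 55493426 to 55493708, averaged 74.7 to 88.6% in KO and 78 to 90.1% in WT. The tile as a whole stood at 17.7%, 17% and 14.2% in KO and 16.2%, 10.9% and 18.3% in WT, a difference of 1.31 points with overlap. Inside the gene, the tile from 55490001 stood at 87.0%, 93.2% and 91.7% in KO and 83.6%, 88.7% and 94.6% in WT.

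Nfkbie encodes IkB epsilon, another inhibitor of c-Rel and p65 dimers. Its region (gene 18037, chromosome 17, 45555700 to 45563169, plus strand, 95 cytosines) had no intermediate cytosine. Both ends were low, the upper one shared with Slc35b2, and 2 tiles inside the gene were high. The tile from 45561001 with 6 cytosines stood at 95.8%, 99.0% and 95.3% in KO, against 93.1%, 94.6% and 95.2% in WT. KO 3 exceeded WT 3 by a narrow margin, so the groups did not overlap, and the difference of 2.50 points had an adjusted p of 0.705.

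Tnfaip3 encodes A20, a ubiquitin-editing enzyme that ends NF-kB signalling and is often lost in human B cell lymphomas. Of the 69 cytosines of its region (gene 21929, chromosome 10, 19000910 to 19015410, minus strand), 56 were low and 13 high. The tile from 19015001 across the start, with 52 cytosines, stood at 0.383%, 0.151% and 0.123% in KO and 0.204%, 0.238% and 0.158% in WT. The next tile inside the gene, from 19014001 with 4 cytosines, stood at 0%, 0% and 1.72% in KO and 0.151%, 2.06% and 0.329% in WT. In the high tile from 19002001, KO had 93.2%, 96.8% and 97.4% and WT had 95.8%, 96.9% and 94.9%. No Tnfaip3 tile separated the genotypes.

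Traf3 encodes an adaptor that holds the non-canonical kinase NIK at low levels in resting B cells. Its region (gene 22031, chromosome 12, 111166321 to 111267155, plus strand, 180 cytosines) had a low start tile of 96 cytosines, at 0.116%, 0.284% and 0.0531% in KO and 0.166%, 0.122% and 0.0695% in WT, and 10 high tiles inside the gene. The tile from 111261001 with 16 cytosines stood at 96.6%, 97.3% and 96.3% in KO, against 94.9%, 95.0% and 95.1% in WT. There was no overlap, and the difference of 1.66 points had p = 0.0380 and an adjusted p of 0.666 in the quasi-binomial model with limma moderation. Beyond the gene's end, the intermediate tile from 111268001 stood at 52.1%, 56.1% and 51.4% in KO, against 43.5%, 54.9% and 48.9% in WT. WT 1 was the lowest and WT 2 lay above KO 1 and KO 3. The difference was 4.34 points with an adjusted p of 0.835. At the reverse-strand cytosine 111247387, KO had 100%, 86.2% and 85.7% and WT had 100% in each library, at 12 to 37 reads (-10.3 points, adjusted p = 0.581).

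Among single cytosines, 693 of the 1224 members had both methylated and unmethylated reads and could be tested. None was called, where 0.000731% of all tested cytosines were called as higher in KO and 0% as lower. Differences of 10 points or more were seen at 12 cytosines higher and 2 lower in KO, with a background of 2.99% and 1.59% of tested cytosines. An unadjusted p below 0.05 was found at 27 cytosines higher in KO and 11 lower, with a background of 5.31% and 3.17%, and the smallest adjusted p was 0.547 in the quasi-binomial model with limma moderation, at the Nfkb2 cytosine 46308971, which was lower in KO.

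Summed over a gene region, no member was called either, and no gene region of the genome was (0% in each direction). The methylated share of Traf3 reads was 39.0%, 33.6% and 36.3% in the KO libraries, against 24.6%, 29.2% and 35.4% in WT. KO 2 lay below WT 3, and the difference of 6.39 points had an adjusted p of 0.234. The Nfkb1 region had 18.5%, 18.8% and 18.1% in KO, against 8.73%, 13.1% and 16.0% in WT. Its genotypes did not overlap, and the difference was 5.96 points (adjusted p = 0.143, quasi-binomial model with limma moderation). The Tnfaip3 region had 11.8%, 11.7% and 11.1% in KO and 6.37%, 7.67% and 9.63% in WT, again without overlap, a difference of 3.67 points (adjusted p = 0.132). Without WT 3, the WT library nearest to KO in all 3 of these regions, the adjusted p was 0.0480 for Nfkb1 and 0.0466 for Tnfaip3, with differences of 7.5 and 4.45 points that stayed under the 10 required. Without WT 3, 233 of 16430 gene regions of the genome were called as higher in KO and 1 as lower.

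The other 6 regions differed by -0.0277 (Rel) to 2.19 points (Relb). The median of the 9 was 0.957 points, against 1.001 over 16431 gene regions. Libraries did not overlap in 2 members higher in KO and in 1 lower (Rel, at 0.115% ± 0.00354 in KO and 0.142% ± 0.0231 in WT), with a background of 24.9% higher and 1.16% lower. An unadjusted p below 0.05 was found for 2 members higher in KO, Nfkb1 and Tnfaip3, and for 0 lower, with a background of 21.9% and 0.189%.

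The libraries also differed in where their reads lay. In Nfkb1, 78.3% ± 0.578 of KO reads and 84.7% ± 3.70 of WT reads fell on low cytosines (SD, n = 3 each). The shares were 88.3% ± 0.515 in KO and 92% ± 1.82 in WT for Tnfaip3, and 60.2% ± 3.0 in KO and 66.6% ± 5.43 in WT for Traf3. Over all cytosines the share was 64.0% ± 1.6 in KO and 69.2% ± 2.24 in WT. With each cytosine weighted equally, the region differences were 0.497 points in Nfkb1, 0.184 in Tnfaip3 and 0.619 in Traf3, with limma adjusted p of 0.422, 0.922 and 0.520. The median of the 9 was then 0.299 points, against 0.157 over all regions. Libraries weighted this way did not overlap in Nfkb1, Rela and Traf3, higher in KO, and in Rel, lower in KO, with a background of 14.4% and 2.13%. In limma on these means, the unadjusted p was below 0.05 for 2 members higher in KO, Nfkb1 and Rela, and for 0 lower, with a background of 9.36% higher and 1.06% lower.

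**Figure D5:**
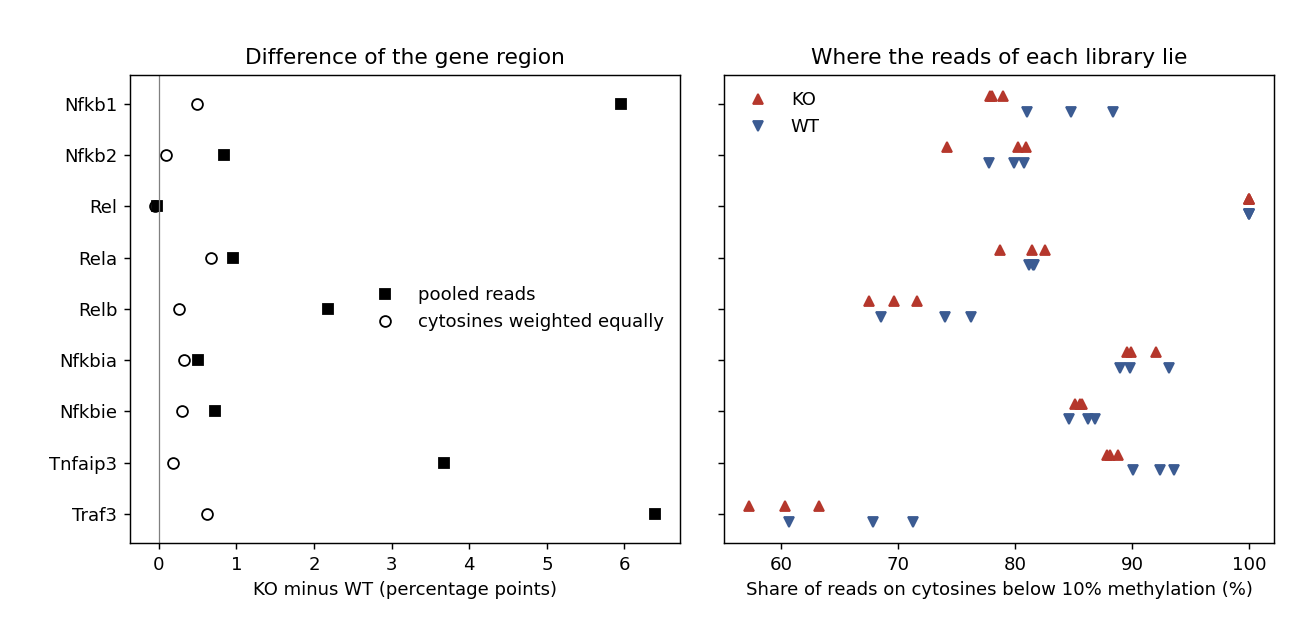
Left: KO minus WT difference of each member's region in percentage points, from pooled reads (squares) and with cytosines weighted equally (circles). Right: the share of each library's reads in the region that lies on cytosines below 10% methylation, in percent, KO as red upward and WT as blue downward triangles. The squares of Nfkb1, Tnfaip3 and Traf3 lie at 5.96, 3.67 and 6.39 points and their circles below 0.7; in Nfkb1 and Tnfaip3 all KO shares lie below all WT shares.

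For Traf3, the member region with the largest difference, the 3 gene regions closest in their 6 library levels were Elk3, Pard6g and Farp2, out of 13722 regions with at least 20 cytosines. Their Euclidean distances were 2.63, 4.01 and 4.33 percentage points. Elk3 stood at 39.7%, 36.1% and 36.7% of reads methylated in KO and at 24.7%, 29.0% and 35.0% in WT.

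The wider pathway was described by 79 genes, 52 of signalling to NF-kB and 27 textbook targets, of which 73 had a tested region. None was called. Pooled differences were above 0 in 61 and below 0 in 12, with a median of 1.26 points, where 81.0% of all gene regions were above 0 with a median of 1.001. At an unadjusted p under 0.05, 17 were higher in KO and 0 lower, with a background of 21.9% and 0.189%. Libraries did not overlap in 24 higher (32.9% of the 73, background 24.9%) and 1 lower (background 1.16%). With cytosines weighted equally the median was 0.181 points, against 0.157 over all regions, and 8 regions did not overlap, all higher in KO, with a background of 14.4% higher and 2.13% lower. Of these genes 3 per direction are given by the smallest p. Traf5, an adaptor of TNF receptor family members, stood at 11.7% ± 1.31 in KO and 7.24% ± 0.391 in WT (4.39 points, adjusted p = 0.130, and 0.655 points with cytosines weighted equally). Tnip1, a partner of A20, and Otud7b, a deubiquitinase that acts on TRAF3, differed by 5.53 and 6.29 points in the same direction, and by 0.242 and 0.362 points with cytosines weighted equally. Lower in KO were Birc2, a ubiquitin ligase for NIK, by -1.23 points (adjusted p = 0.273), Myd88, the adaptor of Toll-like receptors, by -3.03, and the TNF receptor gene Tnfrsf1a by -3.72, with no p under 0.05. With cytosines weighted equally Birc2 differed by -0.115 points, while Myd88 (0.695 points) and Tnfrsf1a (0.0529 points) changed sign. The pooled Myd88 libraries overlapped. Weighted equally, all its KO libraries lay above all WT libraries (limma, unadjusted p = 0.0174, adjusted p = 0.374). The list was not tested against other genes, and its share of reads on low cytosines was not compared.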

How the data were processed

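DNA of 6 samples of splenic naive B cells, 3 KO and 3 WT, was measured by ERRBS. Reads were processed with Bismark on GRCm38, per the submitters' processing notes; the version, trimming and treatment of duplicates were not given in the sources used here. The deposited tables give, per the file headers, each CpG cytosine and strand with its coverage, an unnormalized read count, and the percent of reads with C and with T. The authors' tables list no count below 10. Multiplying percent by coverage gave back counts of C and T, of which 100% were whole within the rounding of the deposited percent. Coverage summed over all listed cytosines was 168455105 to 207065050 per library. A read over several cytosines is counted at each of them, here and in all read numbers of tiles, windows and regions. Counted in this way, a member tile held 75 to 20264 reads per library.

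The 9 genes, the pathway and marker lists and the tests were chosen with earlier results of these data known. Gene spans came from RefSeq GRCm38.p6, without exons; strand came from its promoter table. All features of the genome (tiles with 3 or more cytosines, cytosines, gene regions with 5 or more) were fitted with a quasi-binomial model, 1 level per genotype; the overdispersion, on 4 residual degrees of freedom, was moderated with limma 3.58.1 in R 4.3.3 and given a floor of 1. Genotypes were compared by an F test with Benjamini-Hochberg adjustment over the genome. Features without both C and T reads (141 tiles, 361929 cytosines, 3 regions) were not tested, a choice made after seeing the data. The model was also run on simulated counts. These were drawn with the overdispersion that the model itself had fitted, so they cannot show whether it suits the real libraries. Differences are KO minus WT of pooled reads. Named tiles of a member are those with its largest difference and smallest p; named cytosines have the smallest p among differences of 10 points or more; other named features were chosen after their values were seen. Replicate numbers did not pair libraries (r of -0.0206 to 0.0587 across 13491 intermediate tiles). Alternatives included limma on log2((C + 2)/(T + 2)), edgeR 4.0.16, coverage of 20, other tile and region borders, and leaving out each library.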

Additional observations from a re-analysis of the deposited data

How the results depend on the processing

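The count of called member tiles, cytosines, gene regions and pathway regions was 0 under the 18, 13, 17 and 15 alternatives run for each, leaving out each library included. At an unadjusted p under 0.05 the member tiles numbered 0 to 7, against 3 as reported, with 2 by edgeR and 1 by limma. Among all tiles of the genome 122 were called, and 0 without moderation, with limma, with edgeR, with cytosines weighted equally, with a replicate block, or when tiles without variance were kept. That last alternative was chosen after seeing the data. With the replicate number as a block, 0 member features were called, and 4 member tiles and 8 member cytosines had an unadjusted p under 0.05, against 3 and 38. Among differences of member regions and named tiles, 158 comparisons were with alternatives that left the value as it was, most of which change the test alone. In the others the value moved, keeping its direction in 164 and reversing in 11. Leaving out 1 library, the Nfkb2 region ranged from -0.964 (without KO 2) to 2.15 points, the Nfkbia region from -0.552 (without WT 2; -0.0443 without KO 2) to 1.39, the Relb tile from -0.0614 (without KO 1) to 3.76, the Nfkbia tile from 55490001 from -1.24 (without WT 1) to 4.94, the Nfkbia tile from 55493001 from -0.736 (without WT 2) to 2.53, the Rel tile from 23771001 from -0.0448 to 0.0107 (without KO 3), and the Tnfaip3 tile from 19014001 from -0.703 to 0.313 (without WT 2; 0.134 without KO 1 and 0.126 without KO 2). With flanks of 10 kb the Rel region differed by 0.613 points; the cause was not tested. The difference of the 47 intermediate cytosines was 2.18 (without KO 1) to 5.10 points without 1 library, and 3.73 and 4.17 points with class limits of 20 to 80% and 30 to 70%. Leaving out a library moved other values by more than 1.5 times without reversing them. The Nfkb2 tile from 46309001 differed by 2.61 (without KO 1), 12.9 (without KO 3) and 3.05 points (without WT 2), the Traf3 tile from 111268001 by 1.20 (without WT 1), 7.35 (without WT 2) and 2.81 (without KO 2), and the Nfkbie tile from 45561001 by 1.26 (without KO 2). The Rela region differed by 0.180 (without KO 1) and 1.63 (without KO 2), the Relb region by 3.64 (without WT 1) and 1.37 (without WT 2), the Traf3 region by 4.01 (without WT 1), the Nfkbie region by 1.17 (without WT 1) and 0.436 (without WT 3), and the Rel region by -0.0138 (without WT 1). The Rel tile from 23770001 ranged from -0.0708 (without KO 3) to -0.00813 (without KO 1). Without WT 3, 233 gene regions of the genome were called as higher and 1 as lower, against 0. Depth was 75 to 20264 reads per member tile and library, summed over the cytosines of the tile.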
